A study of Mus musculus with 3 samples.

Results

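The genes of the WASP family and of the WAVE regulatory complex were examined in mouse embryonic fibroblasts (MEFs) that lack endogenous β-actin and carry β-actin fused to a nuclear localization signal (NLS) in its place. The 10 genes were the rows of 46603 in the count files whose Ensembl identifier carries the mouse symbol Was, Wasl, Wasf1, Wasf2, Wasf3, Nckap1, Cyfip1, Cyfip2, Abi1 or Brk1, and all 10 were found. Polyadenylated RNA of 3 libraries was sequenced, all of the group called KO-actin here (label: β-actin KO-NLS-beta-actin), with totals of 44383636 to 49932446 counts. The data therefore hold 1 condition. No change upon β-actin loss or return is given, since libraries of wild-type and β-actin knockout cells were not used here. The labels do not say whether the 3 libraries came from separate cultures or from more than 1 clone, so SDs and p-values measure a spread that may be technical.

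Proteins of the WASP and WAVE families start branched actin networks. Their C-terminal end carries an actin monomer and the Arp2/3 complex, which nucleates a new filament on the side of an existing filament. N-WASP (Wasl) and WASP (Was) hold themselves inactive until Cdc42 binds, whereas WAVE proteins (Wasf1, Wasf2, Wasf3) are held inactive inside a complex with CYFIP, NCKAP1, ABI and BRK1 subunits, and Rac1 binding to CYFIP releases them to drive lamellipodia. Several subunits are encoded by paralogs with different tissue distributions. Wasl, Wasf2, Nckap1, Cyfip1, Abi1 and Brk1 are expressed widely, Was is known from blood cells, Wasf1, Wasf3 and Cyfip2 are known best from brain, and Cyfip2 is also found in lymphocytes.

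A feature that the 5 WASP and WAVE family members share is shown first, the acidic end that binds the Arp2/3 complex. The last 60 coding bases before the stop codon were read from the annotated transcripts (GENCODE M21, GRCm38), 5′ to 3′, with the codon TGG, which encodes the tryptophan of the acidic Arp2/3-binding end, in capitals.
Was: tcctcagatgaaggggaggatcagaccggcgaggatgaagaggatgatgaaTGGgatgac
Wasl: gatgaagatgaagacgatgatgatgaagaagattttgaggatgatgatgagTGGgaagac
Wasf1: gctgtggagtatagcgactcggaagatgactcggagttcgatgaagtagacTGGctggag
Wasf2: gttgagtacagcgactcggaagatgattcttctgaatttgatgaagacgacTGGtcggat
Wasf3: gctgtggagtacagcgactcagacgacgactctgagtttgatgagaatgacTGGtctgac
These stretches lie at chrX:8081937-8085512 (minus strand), chr6:24616288-24618273 (minus strand), chr10:40937741-40937800 (plus strand), chr4:133195812-133195871 (plus strand) and chr5:146470315-146470374 (plus strand). The stretches of Was and Wasl each span a splice junction, so their coordinates cover an intron. TGG stood at the third codon from the end in all 5 genes. Codons for the acidic residues aspartate and glutamate made up 18 of the 20 codons in Wasl, 13 in Was, 11 in Wasf2 and 10 each in Wasf1 and Wasf3. The RNA-Seq data below show how unequally the 5 genes with these ends were represented in the mRNA of KO-actin cells.

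In every family with paralogs, 1 widely expressed paralog made up most of the mRNA. Levels are given as CPM, the count scaled to a common library size with edgeR's TMM factors, and, wherever genes are set against each other, as CPM per kilobase of exon, because a longer mRNA collects more reads. Of the 10 members, 9 had more than 3 counts in every library, which is the limit that a count of 0 allows (0.0601 to 0.0673 CPM, counting error only), against 32.6% of all genes and 59.0% of protein-coding genes. At least 1 CPM in every library was reached by 8 of the 10 members, against 25.5% of all genes and 51.6% of protein-coding genes. The 10 genes together held 0.0882% to 0.0924% of all counts of a library.

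**Figure D1:**
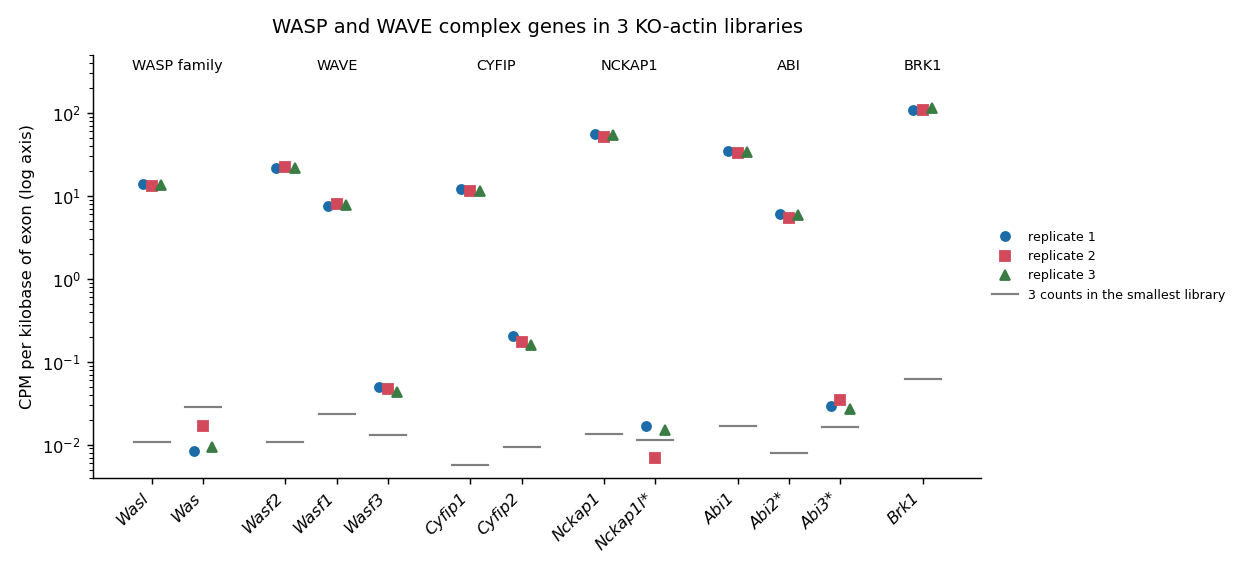
Level of each WASP and WAVE complex gene in CPM per kilobase of exon (log axis) in replicates 1, 2 and 3, with paralogs side by side; asterisks mark the 3 paralogs that are not members, and grey lines the level of 3 counts in the smallest library. Paralogs of a family lie up to 7474-fold apart within a library (Nckap1 and Nckap1l in replicate 2), the points of Was and Nckap1l spread over 2.02- and 2.47-fold, and Was lies below its grey line in every library.

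In the WASP family, nearly all mRNA was Wasl. Wasl (ENSMUSG00000029684, 6:24613805-24665009, minus strand, 11 exons in its longest coding transcript), which encodes N-WASP, had 85.9 CPM in replicate 1, 79.9 CPM in replicate 2 and 82.9 CPM in replicate 3. Its mean was 82.9 ± 3.00 CPM and 13.5 ± 0.487 CPM per kilobase (SD, n = 3), lowest in replicate 2. Was (ENSMUSG00000031165, X:8081453-8090498, minus strand), the gene of the blood cell protein WASP, had 1 count in replicate 1, 2 counts in replicate 2 and 1 count in replicate 3. These values do not exceed the floor of 3 counts in any library, so Was mRNA was not detectable at this depth. In bulk RNA, fewer cells of a type that make an mRNA and less of it per cell cannot be told apart. Per kilobase of exon, Wasl exceeded Was 1152-fold when the counts of the 3 libraries were pooled, with a 95% counting interval from 449.8- to 4229-fold that reflects the 4 counts of Was. Wasl made up 99.91% ± 0.0383 of the family's summed CPM per kilobase (SD, n = 3).

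Of the 3 WAVE genes, Wasf2 was the highest, Wasf1 was present at a lower level, and Wasf3 was near the floor. Wasf2 (ENSMUSG00000028868, 4:133130505-133199756, plus strand), the WAVE protein of lamellipodia in fibroblasts, had 136.6 CPM in replicate 1, 137.5 CPM in replicate 2 and 137.1 CPM in replicate 3. The coefficient of variation over the libraries was 0.322%, under the 1.23% that counting error alone gives. Wasf1 (ENSMUSG00000019831, 10:40883475-40938570, plus strand), the brain-enriched WAVE1 gene, had 21.2 CPM in replicate 1, 22.9 CPM in replicate 2 and 22.0 CPM in replicate 3. Per kilobase of exon the level was 21.9 ± 0.0706 for Wasf2 and 7.73 ± 0.300 for Wasf1 (SD, n = 3), and the 2 genes did not overlap in any library. Wasf3 (ENSMUSG00000029636, 5:146384985-146473615, plus strand), the WAVE3 gene, had 13, 12 and 10 counts in replicates 1, 2 and 3, or 0.243 ± 0.0179 CPM (SD, n = 3). It was above the floor in every library, but its 35 counts in all allow a pooled level from 0.169 to 0.338 CPM (95% exact Poisson interval). The family's summed CPM per kilobase was divided into 73.8% ± 0.679 Wasf2, 26.0% ± 0.686 Wasf1 and 0.157% ± 0.0127 Wasf3 (SD, n = 3). Of the 2 WAVE genes known best from brain, Wasf3 thus stood 166-fold below Wasf1 per kilobase of exon, and 81.6-fold below it per kilobase of coding length.

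CYFIP subunits carry the Rac1 binding sites of the complex, and Cyfip1 supplied almost all CYFIP mRNA. Cyfip1 (ENSMUSG00000030447, 7:55841745-55932602, plus strand) had 142.5 CPM in replicate 1, 137.4 CPM in replicate 2 and 136.3 CPM in replicate 3. Cyfip2 (ENSMUSG00000020340, 11:46193850-46312859, minus strand) had 1.44 CPM in replicate 1, 1.22 CPM in replicate 2 and 1.12 CPM in replicate 3, from 72, 60 and 50 counts. Cyfip2 thus lay well above the floor, unlike Was. Per kilobase of exon the mean was 11.6 ± 0.275 for Cyfip1 and 0.177 ± 0.0232 for Cyfip2 (SD, n = 3), and Cyfip1 made up 98.5% ± 0.157 of the sum. The length of Cyfip1 is uncertain, since its exons over all annotated transcripts cover 11941 bases and its longest coding transcript 6440 bases, and 11.0% of its exonic bases also lie in exons of Nipa2 on the opposite strand. With the longest coding transcript its level was 21.5 CPM per kilobase. Whether counting used the strand is not given in the sources used here, so reads of Cyfip1 and Nipa2 in the shared bases cannot be told apart.

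NCKAP1 is the large scaffold subunit that pairs with CYFIP, and Nckap1 had the highest CPM of all members. Nckap1 (ENSMUSG00000027002, 2:80500512-80581380, minus strand, 32 exons) had 276.7 CPM in replicate 1, 253.1 CPM in replicate 2 and 271.9 CPM in replicate 3. Replicate 2 was the lowest, and the mean was 267 ± 12.5 CPM or 53.8 ± 2.52 CPM per kilobase (SD, n = 3). Its blood cell paralog Nckap1l, known as HEM1 and not a member, had 5, 2 and 4 counts in replicates 1, 2 and 3, of which replicate 2 was under the floor of 3 counts. Nckap1 exceeded Nckap1l 4177-fold per kilobase over pooled counts (95% counting interval 2334- to 8368-fold).

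ABI subunits bind WAVE and recruit Abl kinases, and Abi1 led Abi2 by a smaller factor than separated most other paralogs. Abi1 (ENSMUSG00000058835, 2:22940073-23040241, minus strand) had 139.5 CPM in replicate 1, 133.1 CPM in replicate 2 and 135.6 CPM in replicate 3. Its mean was 136 ± 3.23 CPM and 33.7 ± 0.800 CPM per kilobase (SD, n = 3). Abi2, not a member, had 49.1 ± 2.62 CPM and 5.75 ± 0.306 CPM per kilobase (SD, n = 3), below Abi1 in every library. Abi3, which is known from blood and microglia, had 6, 7 and 5 counts in replicates 1, 2 and 3. Even these few counts are uncertain, since 75.8% of the exonic bases of Abi3 also lie in exons of opposite-strand genes, chiefly Zfp652. Abi1 made up 85.4% ± 0.413 and Abi2 14.5% ± 0.424 of the ABI sum per kilobase (SD, n = 3).

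BRK1, also called HSPC300, is the smallest subunit of the complex and has no paralog among the genes examined. Brk1 (ENSMUSG00000033940, 6:113604772-113616951, plus strand, 3 exons) had 119.8 CPM in replicate 1, 119.3 CPM in replicate 2 and 124.6 CPM in replicate 3. Its exons cover 1095 bases, so its level per kilobase was the highest of the members at 111 ± 2.66 CPM per kilobase (SD, n = 3), rank 398 among 46005 genes with an annotated length.

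By mean CPM per kilobase the members stood in the order Brk1, Nckap1, Abi1, Wasf2, Wasl, Cyfip1, Wasf1, Cyfip2, Wasf3 and Was. Each of the 9 pairs of neighbours in this order was separated, in that the lowest library of the higher gene exceeded the highest library of the lower gene. The closest neighbours were Wasl and Cyfip1, 1.16-fold apart in CPM per kilobase, and their order turned over when the longest coding transcript was used as the length. With coding length, Nckap1 at 78.5 CPM per kilobase stood below Abi1 at 94.3 and Wasf2 at 91.9. By CPM with no division by length, Brk1 stood below Nckap1, Cyfip1, Wasf2 and Abi1. With exonic bases that another gene overlaps left out, the libraries of Wasl and Cyfip1 overlapped. The widest step was from Wasf1 to Cyfip2, 43.6-fold in CPM per kilobase, and parted the 7 members at 7.73 CPM per kilobase or more from the 3 at 0.177 or less. The 7 were the 6 widely expressed members and Wasf1.

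The pentameric complex holds a single copy of each subunit, and the summed mRNA of the 5 subunits was not equal. Protein was not measured, so these values do not give the proportions of the subunits as proteins. In CPM per kilobase summed over paralogs, the mean was 11.8 ± 0.298 for CYFIP, 29.7 ± 0.368 for WAVE, 39.5 ± 1.08 for ABI, 53.8 ± 2.52 for NCKAP1 and 111 ± 2.66 for BRK1 (SD, n = 3). BRK1 mRNA exceeded CYFIP mRNA 9.39-fold ± 0.412 per kilobase (SD, n = 3), and the ranges of the 5 subunits over the libraries did not overlap. The size of this range depended on the length used. It was 5.10-fold with the longest coding transcript, 14.5-fold with coding length and 2.21-fold for CPM with no division by length, where NCKAP1 was the highest and BRK1 the lowest. CYFIP was the lowest and BRK1 the highest under each of the 4 lengths tried.

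**Figure D2:**
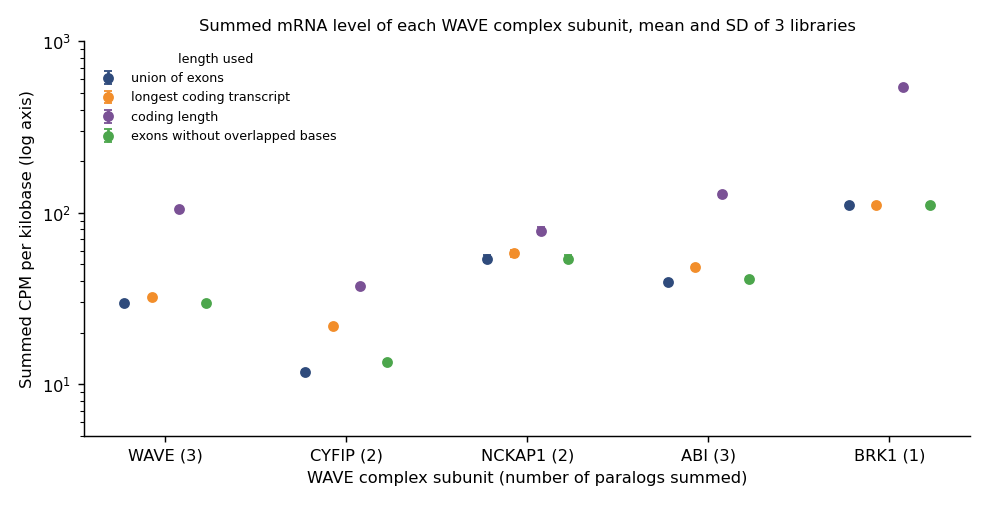
Summed CPM per kilobase of the paralogs of each WAVE complex subunit (log axis), mean and SD of 3 libraries, for 4 definitions of gene length. CYFIP lies lowest and BRK1 highest with each length, from 11.8 to 111 CPM per kilobase for the union of exons.

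Set against each other within libraries, the first gene of each of the 8 paralog pairs was higher in 3 of 3 libraries. The pairs were chosen with earlier results of these data known, so this direction is a description and not a test. The mean log2 ratio of CPM per kilobase was 1.50 ± 0.05 for Wasf2 over Wasf1 and 2.55 ± 0.05 for Abi1 over Abi2 (SD, n = 3). These were the smallest differences among the 8 pairs. It was 6.04 ± 0.15 for Cyfip1 over Cyfip2, 7.37 ± 0.14 for Wasf1 over Wasf3 and 8.88 ± 0.11 for Wasf2 over Wasf3 (SD, n = 3). The 3 pairs with a blood cell gene had mean log2 ratios of 10.25 ± 0.59 for Wasl over Was, 12.13 ± 0.65 for Nckap1 over Nckap1l and 10.14 ± 0.19 for Abi1 over Abi3 (SD, n = 3). The second genes of these pairs had 4, 11 and 18 counts over the 3 libraries. With 3 libraries the two-sided exact sign-flip permutation test cannot give a p below 0.25, and it gave 0.25 for each pair, also after Benjamini-Hochberg adjustment over the 8 pairs. The fold moved by over 1.5 times with another length, or with none, for 6 of the 8 pairs. Without division by length it was 6.22 in place of 2.84 for Wasf2 over Wasf1 and 2.77 in place of 5.87 for Abi1 over Abi2. It was likewise 91.0 in place of 166 for Wasf1 over Wasf3, 111 in place of 65.9 for Cyfip1 over Cyfip2 and 3151 in place of 1217 for Wasl over Was. With overlapped bases left out, Abi1 over Abi3 was 287-fold in place of 1129-fold.

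**Figure D3:**
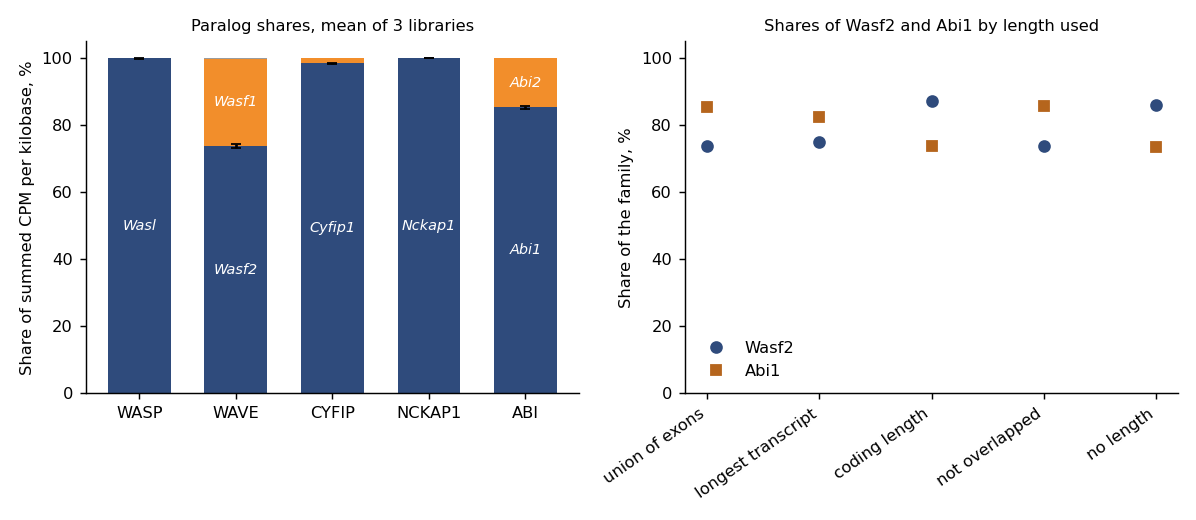
Left, share of each paralog in its family's summed CPM per kilobase, mean of 3 libraries, with the SD of the highest paralog as bars. Right, mean shares of Wasf2 and Abi1 under 5 ways of treating length. Wasl, Cyfip1 and Nckap1 fill 98.5% or more of their families, while the shares of Wasf2 (73.8% to 87.4%) and Abi1 (73.4% to 85.8%) move with the length used.

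The paralogs shared few exact stretches of sequence, which bears on whether a read could count for either. Coding sequences of the 8 pairs were identical at 63.2% to 77.8% of aligned bases, with Cyfip1 and Cyfip2 the most alike. The longest run that any pair shared without a mismatch was 24 bases, in Cyfip1 and Cyfip2, where it took positions 1024 to 1047 of either coding sequence and read cagtacaacatctgtgagcagatg. No window of 50 bases in the longest coding transcript of any member occurred in a transcript of another gene of these families. Windows shared with genes outside the families made up 21.4% of Cyfip1, 4.32% of Abi1 and 3.20% of Was at 50 bases, and none of the other members had any. In Cyfip1 and Abi1 they came chiefly from the opposite-strand neighbours Nipa2 and Pdss1.

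Promoters were set beside the levels because paralogs with similar coding sequence differed up to 1152-fold in CPM per kilobase among the members. RefSeq (GRCm38.p6) start sites were listed for 8 of the 10 members. The table has no entry for Nckap1 and Cyfip1. The 250 bases before the start are printed for Was and Wasl, the pair with the largest difference among the members, and for Cyfip2, a low member, with every CG dinucleotide in capitals.
Was: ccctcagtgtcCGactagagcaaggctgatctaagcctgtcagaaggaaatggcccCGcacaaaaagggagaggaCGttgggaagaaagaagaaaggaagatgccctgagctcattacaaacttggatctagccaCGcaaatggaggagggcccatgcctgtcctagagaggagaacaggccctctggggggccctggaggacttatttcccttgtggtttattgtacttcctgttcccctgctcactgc
Wasl: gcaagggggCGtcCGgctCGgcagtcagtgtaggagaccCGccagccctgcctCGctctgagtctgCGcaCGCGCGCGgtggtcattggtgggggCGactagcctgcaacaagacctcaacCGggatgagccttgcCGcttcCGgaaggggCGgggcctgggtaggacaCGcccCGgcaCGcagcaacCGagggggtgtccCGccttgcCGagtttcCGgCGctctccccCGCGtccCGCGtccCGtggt
Cyfip2: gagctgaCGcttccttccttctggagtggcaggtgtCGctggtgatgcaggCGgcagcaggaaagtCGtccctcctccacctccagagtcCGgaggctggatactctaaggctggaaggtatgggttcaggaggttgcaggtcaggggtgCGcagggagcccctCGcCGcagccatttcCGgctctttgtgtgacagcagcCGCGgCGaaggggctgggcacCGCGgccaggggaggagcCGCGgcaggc
They lie at chrX:8090492-8090741 (minus strand), chr6:24664996-24665245 (minus strand) and chr11:46312359-46312608 (minus strand). The printed stretch of Was holds 4 CG, that of Wasl 28 and that of Cyfip2 16. CG reads the same on either strand. In the window of 300 bases that also takes in 50 bases after the start, the ratio of observed to expected CG was 0.235 for Was and 0.918 for Wasl, against a median of 0.384 over 32851 promoters, of which 35.8% reached 0.6. The ratio was at least 0.6 for Wasl, Wasf1, Wasf2, Brk1, Cyfip2 and 1 of the 2 Abi1 start sites, at 0.626. It was under 0.6 for Was, for Wasf3 at 0.273 and for the other Abi1 start site at 0.555. High ratio and high level did not always go together in this set, since Cyfip2 had a ratio of 0.803 at a level of 0.177 CPM per kilobase. This rests on 1 RefSeq start site. The printed stretch of Cyfip2 lies inside the span of the gene in GENCODE M21, downstream of its annotated 5′ end.

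Between the 3 libraries, Nckap1 and Wasl varied by more than counting error gives. Such variation was tested per gene by a chi-square test on the 3 counts, adjusted by the Benjamini-Hochberg method over the 13814 genes that had 10 counts or more in each library. It called 2 of the 9 members tested, Nckap1 and Wasl, whereas the background was 43.8% of all genes tested, and 5 of the 9 had an unadjusted p under 0.05. Was had too few counts to be tested. Nckap1 had a coefficient of variation of 4.67%, where counting error alone gives 0.884% (adjusted p = 6.30e-12 on edgeR-scaled libraries). For Wasl it was 3.62%, where counting error gives 1.59% (adjusted p = 0.0135 on edgeR-scaled libraries). Abi1 and Cyfip1 were just outside the threshold, with adjusted p of 0.0509 and 0.0527 on edgeR-scaled libraries. The SD of log2 CPM was 0.05 in the median member tested, 0.0047 for Wasf2 at the lowest and 0.18 for Cyfip2 at the highest, against a median of 0.08 over all genes tested. It was below that median for 7 of the 9. Wasf3 (10 to 13 counts per library) and Cyfip2 (50 to 72), the members tested with the fewest counts, were above it. When the limit for testing was raised from 10 to 100 counts per library, 4 of 7 members (57.1%) were called, against 51.7% of all genes. Whether the spread of the members differs from that of genes with similar counts was not tested.

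Replicate 2 differed from the other libraries by base composition. Both members called were lower in it, as were members not called, such as Abi1 and Brk1. Relative to the mean of replicates 1 and 3, the median log2 level in replicate 2 was -0.11 over genes of at most 45.5% GC and 0.10 over genes of at least 55.0% GC, the lowest and highest quartiles of the genes tested. Nckap1, at 45.9% GC, had a log2 difference of -0.12 and Wasl, at 43.7% GC, of -0.08. From its mean over the 3 libraries, Wasl deviated by 0.05 in replicate 1 and by -0.05 in replicate 2. The difference of replicate 2 from the mean of replicates 1 and 3 was smaller for Abi1, with -0.05. Abi1 was the member with the lowest GC content, at 41.0%. Cyfip1, at 46.1% GC, had -0.02. Wasf2, at 54.4% GC, had 0.01 and Wasf1, at 50.2% GC, had 0.09. Brk1, also at 50.2% GC, had -0.03. With library sizes scaled within 20 bins of GC content, 28.8% of all genes were called, and the members called were Nckap1 (adjusted p = 0.00465 on edgeR-scaled libraries), Cyfip1 and Abi1, while Wasl had an adjusted p of 0.384. Without replicate 2, none of the 9 members was called by this chi-square test on edgeR-scaled libraries, 2 had an unadjusted p under 0.05, and 12.5% of all genes were called. The part of base composition in the variation of single members was not tested beyond these values.

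**Figure D4:**
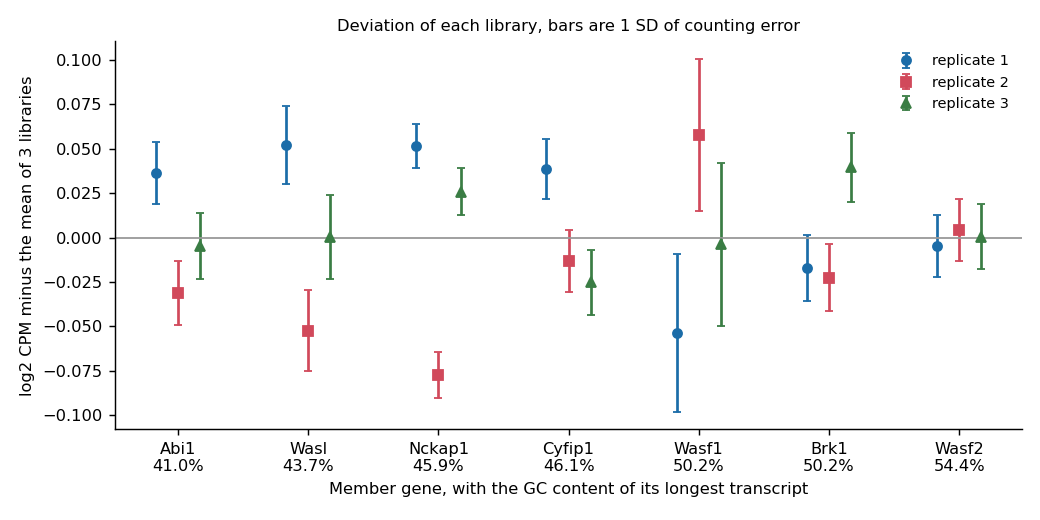
log2 CPM of each library minus the mean of the 3 libraries, for the 7 members with more than 100 counts in every library, ordered by the GC content of the longest transcript; bars are 1 SD of counting error. Replicate 2 lies lowest for Nckap1, Wasl, Abi1 and Brk1 and highest for Wasf1 and Wasf2, and the 3 libraries of Wasf2 lie within 0.01 of 0.

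Most partners of WASP and WAVE proteins were above the floor of 3 counts, against 32.6% of all genes and 59.0% of protein-coding genes. The 7 lists of pathway genes hold 41 genes, and the lists of cell type markers 34. WIP family proteins bind and stabilize WASP and N-WASP, and 3 of 3 of their genes were above the floor. The lowest was Wipf3 at 0.0299 CPM per kilobase, with 9, 6 and 15 counts in replicates 1, 2 and 3. The highest was Wipf1 at 4.63 CPM per kilobase. Of 5 small GTPase genes that act upstream, 4 were above the floor. Cdc42, the activator of N-WASP, was the highest at 155 ± 5.22 CPM per kilobase (SD, n = 3), and Rac2, known from blood cells, had 0 counts in every library, which allows at most 0.0601 to 0.0673 CPM. Of 10 adaptors and membrane-bending activators, 10 were above the floor, from the intersectin gene Itsn1 at 3.43 CPM per kilobase to the adaptor gene Grb2 at 47.0 CPM per kilobase. Of 5 tyrosine kinase genes, 4 were above the floor. Src was the highest at 28.3 CPM per kilobase, and Btk, a kinase of B cells and myeloid cells, had 0, 2 and 4 counts in replicates 1, 2 and 3.

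Other activators and the inhibitors of Arp2/3 were also mostly above the floor, against the same 32.6% of all genes and 59.0% of protein-coding genes. Of 9 other activators, 8 were above the floor. Washc5, a subunit of the endosomal WASH complex, was the highest at 120 ± 2.85 CPM per kilobase (SD, n = 3), above each of the members by mean. Hcls1, the blood cell relative of the cortactin gene Cttn, had 1, 2 and 0 counts. Of 6 inhibitor genes, 5 were above the floor, with the coronin gene Coro1b the highest at 112 ± 4.96 CPM per kilobase (SD, n = 3) and Gmfg, known from blood cells, at 0, 1 and 1 counts. Of the genes of these lists that were tested, variation between libraries was called by the chi-square test in 1 of 1 paralog outside the members (Abi2), 1 of 2 WIP genes, 2 of 4 small GTPases, 7 of 10 adaptors, 3 of 4 kinases, 5 of 8 activators and 3 of 5 inhibitors, against the background of 43.8% over all genes tested.

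**Figure D5:**
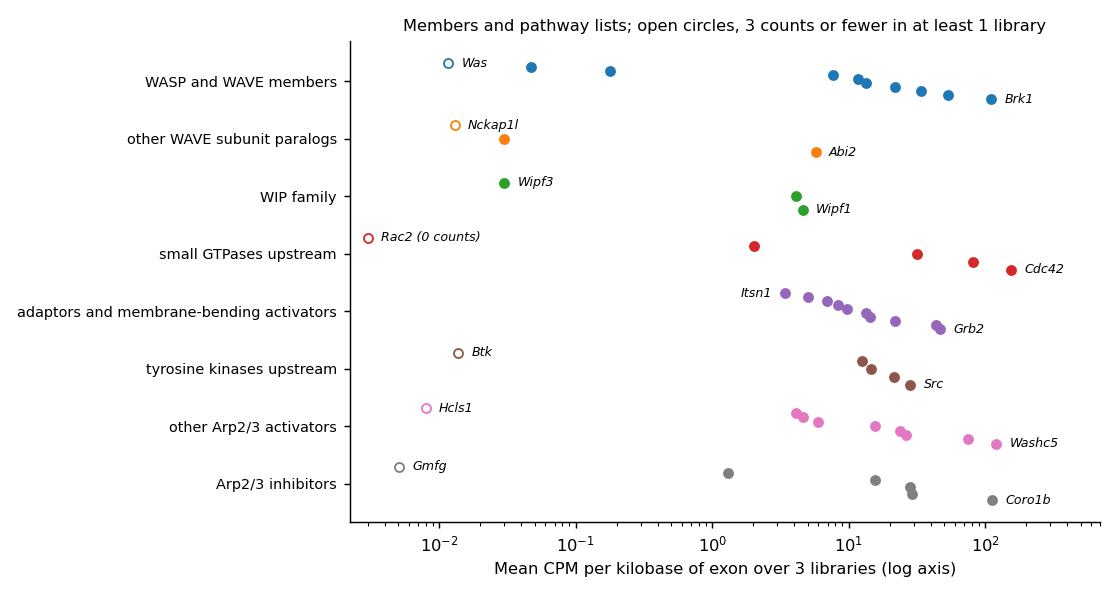
Mean CPM per kilobase of exon over 3 libraries (log axis) for the members and the 7 lists of pathway genes; open circles are genes with 3 counts or fewer in at least 1 library, Rac2 with 0 counts is drawn at the left edge, and the highest and lowest gene of each list is named. Most genes lie above 1 CPM per kilobase. The genes at the left of their lists are Was, Nckap1l, Wipf3, Rac2, Itsn1, Btk, Hcls1 and Gmfg, of which Wipf3 and Itsn1 were above the floor.

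Markers of the labelled cell type and of other cell types give the setting for the low members. For comparison, 32.6% of all genes and 59.0% of protein-coding genes were above the floor. Fibroblast markers were above the floor in 10 of 10 genes, with a summed 13750 to 14760 CPM per library, from Vim at 962 CPM per kilobase to Thy1 at 0.279 CPM per kilobase. Blood markers were above the floor in 1 of 10 genes, the transcription factor gene Spi1 with 7, 12 and 14 counts, and summed to 0.461 to 0.831 CPM. Cd3e was at 0 in every library, and Ptprc, the pan-leukocyte marker, had 0, 1 and 0 counts. Neuron markers were above the floor in 8 of 8 genes, but 4 of the 8 were under 1 CPM in at least 1 library, and they summed to 57.6 to 58.4 CPM, of which Map2 gave 40.9 ± 0.690 CPM (SD, n = 3). The neuronal nuclear marker Rbfox3, the lowest of the 8 per kilobase, had 0.306 ± 0.0229 CPM (SD, n = 3). Per kilobase of exon Rbfox3 had 0.0526 CPM, against 0.0467 for Wasf3. The other neuron markers were higher than both, up to 5.86 CPM per kilobase. Glia markers were above the floor in 3 of 6 genes and summed to 14.3 to 14.8 CPM, mostly Mbp at 12.1 ± 0.118 CPM (SD, n = 3), with the water channel gene Aqp4 the lowest per kilobase, at 3, 2 and 4 counts. The part of these cell types in the levels of Was, Wasf1, Wasf3 and Cyfip2 was not tested.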

How the data were processed

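Polyadenylated RNA of 3 KO-actin libraries was sequenced. Each deposited file holds whole-number counts of reads on Ensembl genes, which the authors did not normalize. The submitters' processing notes name Trimmomatic, FastQC, HISAT2 and HTSeq with the builds mm10 and GRCm38; versions, annotation, read length and use of the strand are not given in the sources used here, so counts in bases shared with an opposite-strand gene are uncertain.

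Identifiers were matched to symbols and exons in GENCODE M21 (46005 of 46603). TMM factors came from edgeR 4.0.16 (R 4.3.3), and alternatives to them were total counts and size factors of DESeq2 1.42.0. CPM was divided by the union of exons in kilobases. Variation was tested by a chi-square test (2 degrees of freedom, adjusted p threshold 0.05, Benjamini-Hochberg), which was tested on simulated data. Pairs were tested by exact sign-flip permutation. Alternatives were 4 other treatments of length, count filters, GC bins and leaving out each library. Python 3.11.15, numpy 2.4.6, pandas 2.3.3, scipy 1.17.1, Biopython 1.88 and matplotlib 3.10.9 were used. The members, the paralog pairs and the 12 lists were chosen with earlier results of these data known. The genes named are all members, the 3 other paralogs, the highest and lowest of each list, and any gene a small count needs. The highest blood marker and the highest neuron marker per kilobase are not named. Map2, Mbp, Ptprc, Coro1a, Col1a1 and Col1a2 were named after their values were seen. Some genes of the marker lists are not reported here by name.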

Additional observations from a re-analysis of the deposited data

How the results depend on the processing

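No paired analysis was possible because the 3 libraries belong to 1 condition, and no groups were compared. Of the main values under these alternatives, 22 moved and 111 did not. Moved means by more than the SD between libraries for shares and subunit sums, or by over 1.5 times for counts. The 22 include no log2 ratio of a pair, although Wasf2 over Wasf1 went from 1.50 to 2.81 with coding length (SD 0.05). The log2 ratio of each of the 8 pairs kept its sign under every alternative, though 6 of the 8 folds moved by over 1.5 times with another length or with none. The order of members and of subunits changed with the length used. With total counts as library sizes, 4 of the 9 members varied beyond counting error (Abi1 and Brk1 added), against 43.9% of all genes tested. Among the 7 members with at least 100 counts in every library it was 4 (Cyfip1 and Abi1 added), against 51.7%. The number of members ranged from 0 to 3 when each library was left out. None was called without replicate 2 (12.5% of all genes tested), Nckap1 without replicate 1 (32.9%), and Wasl, Nckap1 and Abi1 without replicate 3 (34.1%). Over all genes, 3968 were called within bins of GC content, and 1750 to 4807 when each library was left out, in place of 6046. The share of Wasl was 99.97% by coding length and with no division by length. The share of Wasf2 was 74.9% by the longest coding transcript, 87.4% by coding length and 86.0% with no division by length. The share of Cyfip1 was 99.13%, 99.1% and 99.1% in turn, and 98.68% over bases that no other gene overlaps. The share of Abi1 was 82.4%, 73.7% and 73.4% in turn. The fold between the highest and lowest subunit was 5.10, 14.5 and 2.21 in turn, and 8.24 over bases not overlapped. The shifts in shares and folds follow from the length put in the divisor. The level of 10 of 10 members moved by more than its SD with coding length, 6 with the longest coding transcript and 2 with bases not overlapped, and none of the 10 moved with another scaling or without any library. Depth limits Was, Nckap1l and Abi3, whose counts were 7 or fewer in every library.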

Other observations

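Across the pathway lists, the genes known mainly from blood cells stood at or near the floor together, a set put together after the values were seen and given as a description. Was, Nckap1l, Rac2, Btk, Hcls1 and Gmfg each had 3 counts or fewer in at least 1 library, and Abi3 had 5 to 7 counts. The exception was Coro1a, the coronin gene known from leukocytes, with 178, 189 and 156 counts in replicates 1, 2 and 3, or 3.63 ± 0.172 CPM (SD, n = 3). Spi1, a blood marker, was above the floor as well.

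Among the fibroblast markers, levels of the collagen I genes were far apart, although their products form a trimer together. Col1a1 had 618 ± 38.4 CPM per kilobase and Col1a2 had 1.69 ± 0.125 CPM per kilobase (SD, n = 3). The cause was not tested.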
